A study of Homo sapiens with 191 samples.

Results

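The region cluster around RACK1, TRIM41, TRIM52, TRIM7 and OR2V2 at the distal end of the long arm of chromosome 5 held 40 of the 50000 accessible regions in the deposited list. Its members were chosen by position in that list, as the regions with centres between the first and last base of chr5:180586177-180689203 (hg19), because this stretch holds more regions than any other cluster formed by joining neighbouring regions over a fixed distance, set between 10 and 25 kb (either of which gave the same 40). The number of regions and their closeness are therefore what chose the cluster, and they are given below only as a description.

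The data are from GM12878, a human B lymphoblastoid cell line made with Epstein-Barr virus from the B cells of a donor. Its cells were fixed, permeabilised, treated with the Tn5 transposase in bulk and then sorted one to a well, and the libraries, 96 on plate 1 and 95 on plate 2, form 1 group of unstained cells. Treatment, genotype and time did not vary, the cells are of 1 line, and 1 list of regions called on the pooled cells was analysed, so that no value had a replicate and no difference was tested, and the study does not state outright whether libraries that failed its later filter on single cells were in that pool. The line carried its expected markers, as 7 of 8 B cell genes and 1 of 10 genes of other cell types (LYZ, with a score of 18.7) had a region within 1 kb of a start site.

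RACK1 is a scaffold protein that sits on the small (40S) subunit of the ribosome and also binds activated protein kinase C. TRIM proteins carry a RING domain, B-boxes and a coiled coil, and many act as E3 ubiquitin ligases in innate immunity and protein turnover. TRIM41 and TRIM7 are ubiquitin ligases, TRIM52 is a short member of the family, and OR2V2 encodes an olfactory receptor, a class of receptor used by sensory neurons of the nose. A housekeeping gene, 3 TRIM genes and a sensory receptor gene thus lie side by side.

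Each region is 501 bp wide and centred on the summit of a called peak. Its name holds a number that runs along the genome, 1 for each called peak, and a letter where a called peak had several summits. Its score is the -log10 of the q-value of the peak call, so that a higher score stands for a stronger call in the pooled cells, and whether many cells or a few cells with many fragments gave it cannot be told apart. Ranks run from 1 for the strongest of the 50000 regions, and tied regions share the better rank.

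Printed first are 150 bases from each of the 5 strongest regions and from the strongest region at the RACK1 start, because the results turn on these 6. The letters are from the + strand of GRCh37 (hg19), 5′ to 3′, and lie within 150 bp of the summit and outside annotated UTRs. Capitals mark matches to consensus motifs of transcription factors, spelled out further on. The stretches are, in order, chr5:180650131-180650280, chr5:180618775-180618924, chr5:180649081-180649230, chr5:180688152-180688301, chr5:180673471-180673620 and chr5:180670964-180671113.
380677d, TRIM41 start: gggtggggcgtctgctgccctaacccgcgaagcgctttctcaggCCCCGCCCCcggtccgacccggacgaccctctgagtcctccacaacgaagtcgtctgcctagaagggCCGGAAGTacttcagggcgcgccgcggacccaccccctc
380662k, between LINC01962 and TRIM7-AS2: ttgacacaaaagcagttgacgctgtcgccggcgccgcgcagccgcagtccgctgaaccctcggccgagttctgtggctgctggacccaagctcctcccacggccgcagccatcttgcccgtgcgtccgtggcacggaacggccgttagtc
380677b, before TRIM41: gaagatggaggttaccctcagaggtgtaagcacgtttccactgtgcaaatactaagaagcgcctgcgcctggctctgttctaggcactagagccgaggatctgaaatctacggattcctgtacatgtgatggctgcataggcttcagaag
380698a, between TRIM52 and TRIM52-AS1: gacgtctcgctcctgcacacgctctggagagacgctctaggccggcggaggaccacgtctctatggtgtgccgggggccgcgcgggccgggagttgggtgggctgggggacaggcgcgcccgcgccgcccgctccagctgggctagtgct
380692b, CTC-338M12.4 start: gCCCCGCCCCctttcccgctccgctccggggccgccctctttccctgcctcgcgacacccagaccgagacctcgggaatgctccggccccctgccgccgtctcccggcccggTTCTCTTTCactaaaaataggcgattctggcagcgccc
380690c, RACK1 start: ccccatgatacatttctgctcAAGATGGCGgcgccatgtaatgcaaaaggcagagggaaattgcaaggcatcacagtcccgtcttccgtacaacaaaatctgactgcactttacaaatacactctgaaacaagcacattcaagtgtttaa

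These stretches differed in base composition. The 4 at the starts of TRIM41, LINC01962, TRIM52 and CTC-338M12.4 held 67.3% to 74.0% G and C, the one before TRIM41 held 50.7%, and the RACK1 stretch held 44.0%. The RACK1 stretch had 4 CpG sites, against 18 in the stretch at TRIM52. A stretch is only a part of its region. Over the whole 501 bp, the RACK1 region 380690c held 54.9% G and C and 29 CpG sites. The TRIM52 region 380698a held 68.9% and 42.

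TRIM41 had the strongest region of the cluster. Region 380677d (chr5:180649973-180650473) had a score of 708 and rank 1139, and its centre lay 58 bp from an annotated transcription start site (TSS) of TRIM41 (ENSG00000146063, chr5:180649499-180662808, + strand). Region 380677b of the same called peak (chr5:180648906-180649406) had a score of 269, 343 bp before the outermost TSS. The TRIM41 promoter was thus marked by a pair of strong summits, and the microRNA gene MIR4638 (chr5:180649566-180649633, - strand) lay between them and under neither. The other TRIM41 regions were much weaker. Region 380677e, 12 bp from a further TSS, had a score of 40.9, region 380678 had 20.0 and region 380681, 51 bp from an internal TSS far down the gene, had 17.3. All 5 lay within 1 kb of one of the 8 TSSs of the gene. ENSG00000247049, a long non-coding gene on the opposite strand inside TRIM41, had no region within 1 kb of its start.

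RACK1 (ENSG00000204628, chr5:180663897-180675096, - strand) was covered by several regions, most of them with low scores. The gene with 2 kb before it held 8 regions, with scores of 36.2, 30.1, 83.9, 18.7, 27.2, 157.6, 16.0 and 22.8 in the order of the chromosome. Of these, 5 lay within 1 kb of one of its 27 annotated TSSs. The strongest of the 5 was 380690c (chr5:180670789-180671289), with a score of 83.9, rank 11227 and a centre 92 bp before the nearest TSS, just upstream of 180670902, the position shared by the most annotated transcripts of the gene (4 of them, the rest being spread over its other TSSs). The next, 380687 with 36.2, lay 24 bp from an internal TSS and 229 bp from the start of SNORD96A, a small nucleolar RNA gene in a RACK1 intron. Region 380689a, with 30.1, also lay within 1 kb of SNORD95, another such gene. Region 380692c had 16.0, the lowest score in the list, at the outer TSSs of the gene. The strongest region over RACK1, 380692b (chr5:180673296-180673796), with 157.6 and rank 6422, was 23 bp from a TSS of CTC-338M12.4 (ENSG00000233937), a long non-coding gene on the + strand that begins inside RACK1, and 1030 bp from the nearest TSS of RACK1 itself.

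TRIM52 (ENSG00000183718, chr5:180681077-180688151, - strand) was marked at its start alone. Region 380698a (chr5:180687904-180688404) had a score of 174.1 and rank 5841, with its centre 3 bp from the outermost TSS. That TSS lies 19 bp from the start of TRIM52-AS1, a long non-coding gene that runs the other way, whose start was 16 bp from the same centre. The other listed summit of this called peak, 380698c, had a score of 83.9 and lay 802 bp from the outermost TSS of TRIM52, inside TRIM52-AS1. No region was centred in the body of TRIM52. Most of that body lay in a gap of 9184 bp without regions, and its 5′ end lay under 380698a.

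A second pair of opposed starts, LINC01962 and TRIM7-AS2, showed the same arrangement. The starts of these long non-coding genes are 4 bp apart, and the centre of 380662k (chr5:180618600-180619100) lay 2 bp from the one and 6 bp from the other. Its score was 325 and its rank 3089, second in the cluster to the TRIM41 promoter. LINC01962 (chr5:180605821-180618852, - strand) held 11 regions with 2 kb before it, the most of any gene here, with scores from 17.3 to 325 and a median of 34.7, and 6 of them lay within 1 kb of one of its 3 TSSs.

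TRIM7 (ENSG00000146054, chr5:180620924-180632293, - strand) had regions at an internal start only. Of its 6 TSSs, the one nearest the end of the gene had a pair of regions within 1 kb, 380666 with a score of 115.9 at 578 bp and 380664 with 18.7 at 506 bp. Both were closer to TSSs of TRIM7-AS1, a long non-coding gene on the opposite strand, at 33 and 49 bp. The other 5 TSSs, the outermost included, had none, and the region nearest the outermost TSS, 380673a with 45.8, was 1726 bp away. That region lay 899 bp from the start of ENSG00000248514, a further long non-coding gene. Between TRIM7 and TRIM41, ENSG00000286644, also long and non-coding, had a region with 67.8 at its start and one with 85.8 at 699 bp.

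OR2V2 (ENSG00000182613, chr5:180574586-180586285, + strand) had no region centred in its body or in the 2 kb before it. The nearest to a TSS of the gene, 380644 with a score of 24.3, was 11789 bp away, and its centre fell just past the end of the gene. Of all the members, 4 fell within 10 kb of OR2V2, each beyond its 3′ end, with scores of 24.3, 67.8, 74.9 and 24.3. The gene thus bounded the cluster and lent no promoter to it.

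**Figure D1:**
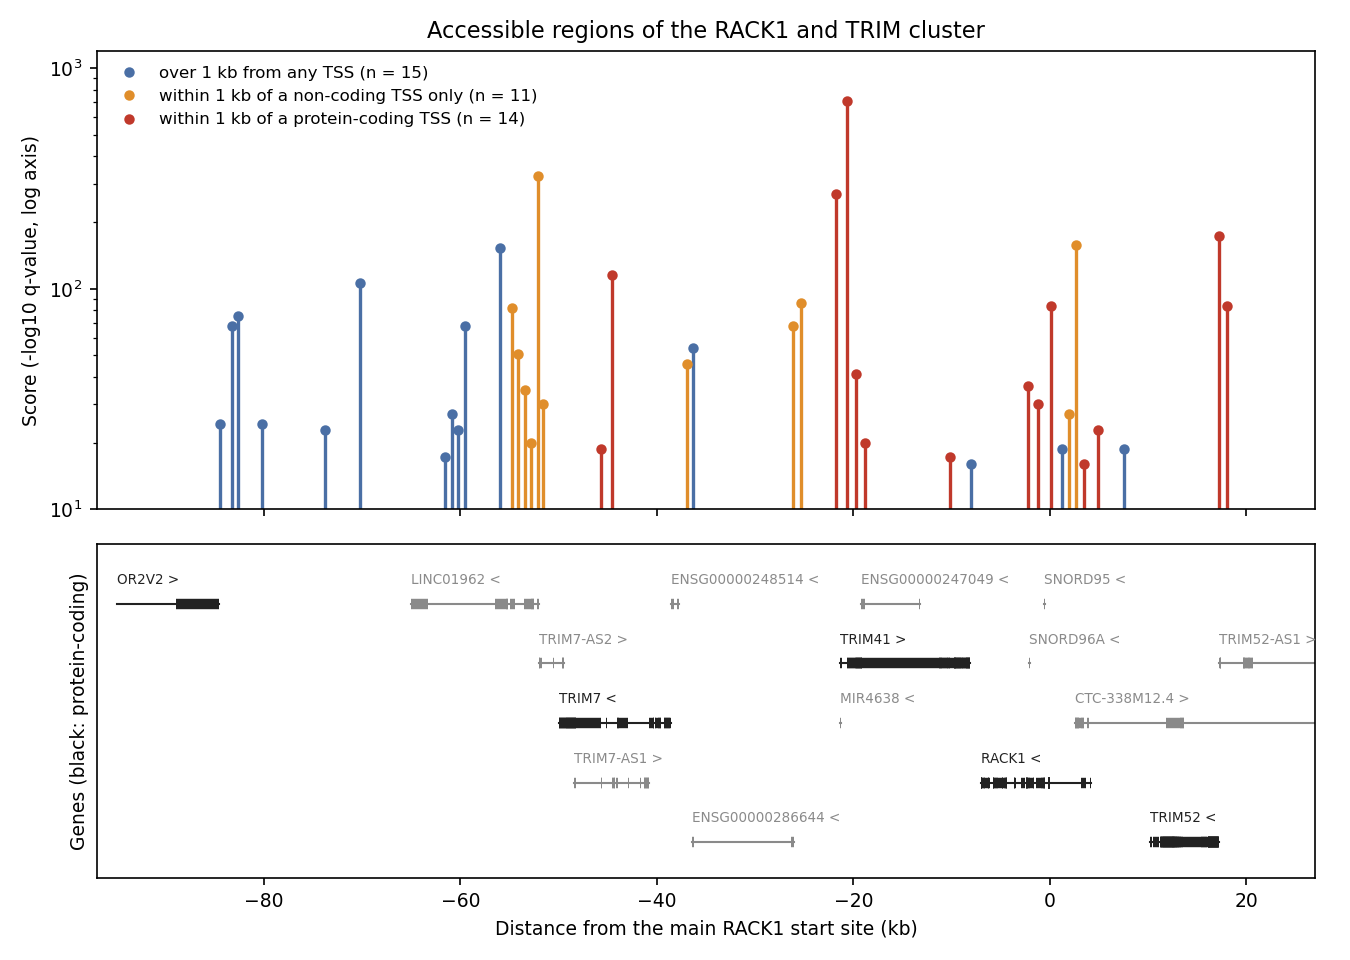
Scores of the 40 regions (upper panel, -log10 q-value on a log axis) by distance in kb from the main RACK1 start site, coloured by the kind of start site within 1 kb, above the annotated genes (lower panel, thick parts are exons, > is the + strand and < the - strand, grey is non-coding, and genes running past the edges are clipped). The highest stem, 708, stands at the TRIM41 start, the stems over RACK1 stay at or below 157.6, and OR2V2 has none.

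Of the 40 regions, 14 (35.0%) were within 1 kb of a protein-coding TSS, against 32.7% of the whole list. By the place of the centre, 3 of the rest lay in introns of protein-coding genes (7.5%, against 30.6% of the list), none in their exons (against 2.48%), and 23 outside protein-coding genes (57.5%, against 34.2%). Much of this last class lay at non-coding starts. With the TSSs of all 16 annotated genes that overlap the cluster, 11 of which are non-coding, 25 regions (62.5%) were within 1 kb of a TSS, against 38.3% of the list with the TSSs of all annotated genes. These 25 regions had scores from 16.0 to 708 with a median of 45.8. The other 15 had scores from 16.0 to 153.6 with a median of 24.3, and 8 of them lay inside a gene of any type and 7 outside every gene. The strongest of those 15 was 380662a, in LINC01962, with 153.6, and the next was 380655b, outside every gene, with 106.3.

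The quartiles of the members' scores were each somewhat above those of the list. Their median was 38.6 with quartiles of 22.8 and 83.9, against a median of 31.6 with quartiles of 20.0 and 74.9 over all regions. At or above the upper quartile of the list were 13 members (32.5%, against 25.1% of the list, ties included), and 2 members had its lowest score. The 14 regions at protein-coding starts had a median of 38.6, below the 64.3 of all such regions, and the 23 regions outside protein-coding genes had a median of 45.8, above the 25.7 of theirs. By their median, the members at protein-coding starts were thus weaker than such regions in the list, but not each of them was. The strongest member of all, with 708, was at TRIM41, and the TRIM52 start had 174.1, both above 64.3. The 14 include regions at every annotated start site, and with the outermost one of each protein-coding gene alone they were 6. How the median depends on this choice was not tested.

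The regions were spread unevenly over the 103027 bp. They covered 19.5% of it, and the 39 gaps between neighbours ran from 8 to 9663 bp with a median of 583 bp, against 15935 bp in the list. Joined over 5 kb only, they fell into 9 groups, of which the largest were the 11 regions at LINC01962 and the 9 over the 5′ part of RACK1 and beyond its start. TRIM41 and ENSG00000286644 shared a group of 6, and TRIM52 had a group of its own with 2. The 8 gaps over 5 kb lay over gene bodies or between genes, and 92.8% to 99.7% of the 75-base words in them occur once in the genome. The repeat content of the gaps was not measured, and why they hold no regions was not tested.

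The names of the regions show how many calls lie behind them. The members carried 27 different numbers of the 55 between 380644 and 380698, or 49.1%, against 8.53% of all numbers up to the highest in the list. The cluster was chosen for its many listed regions, so a high share follows from that choice and is no separate result. The other 28 numbers belong to peaks called in this stretch that are absent from the list, and whether these were weaker or were removed by a filter was not tested. A letter was present in 24 of 40 names (60.0%), against 36.6% of the list. Over the 287 clusters of at least 10 regions the median share was also 60.0%. The lettered regions came from 11 called peaks. Up to the last letter seen in each, these 11 peaks had 38 summits, of which 14 are absent from the list, so that 63.2% were present, against 67.6% over all lettered peaks.

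Called peak 380662, over LINC01962 and the start of TRIM7-AS2, gave more listed regions than any other of these peaks. It gave 7 regions over 4879 bp, with scores of 153.6, 82.1, 50.7, 34.7, 20.0, 325 and 30.1 along the chromosome, and its last letter was the one in position 12. Scores thus fell from its first summit towards the opposed starts and peaked there. In the whole list, 11 of 12127 lettered peaks had 7 or more listed regions, and 6 had a last letter in position 12 or beyond. Counted up to the last letter seen, the TRIM41 promoter peak, 380677, had 3 of 5 summits listed. The peak at the main RACK1 start, 380690, had the third alone, so that its first 2 summits are not among the regions. Counted in the same way, the peak at CTC-338M12.4 had 3 of 3 summits listed, with scores of 27.2, 157.6 and 16.0. Whether a peak had summits past its last letter seen cannot be told from the list.

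**Figure D2:**
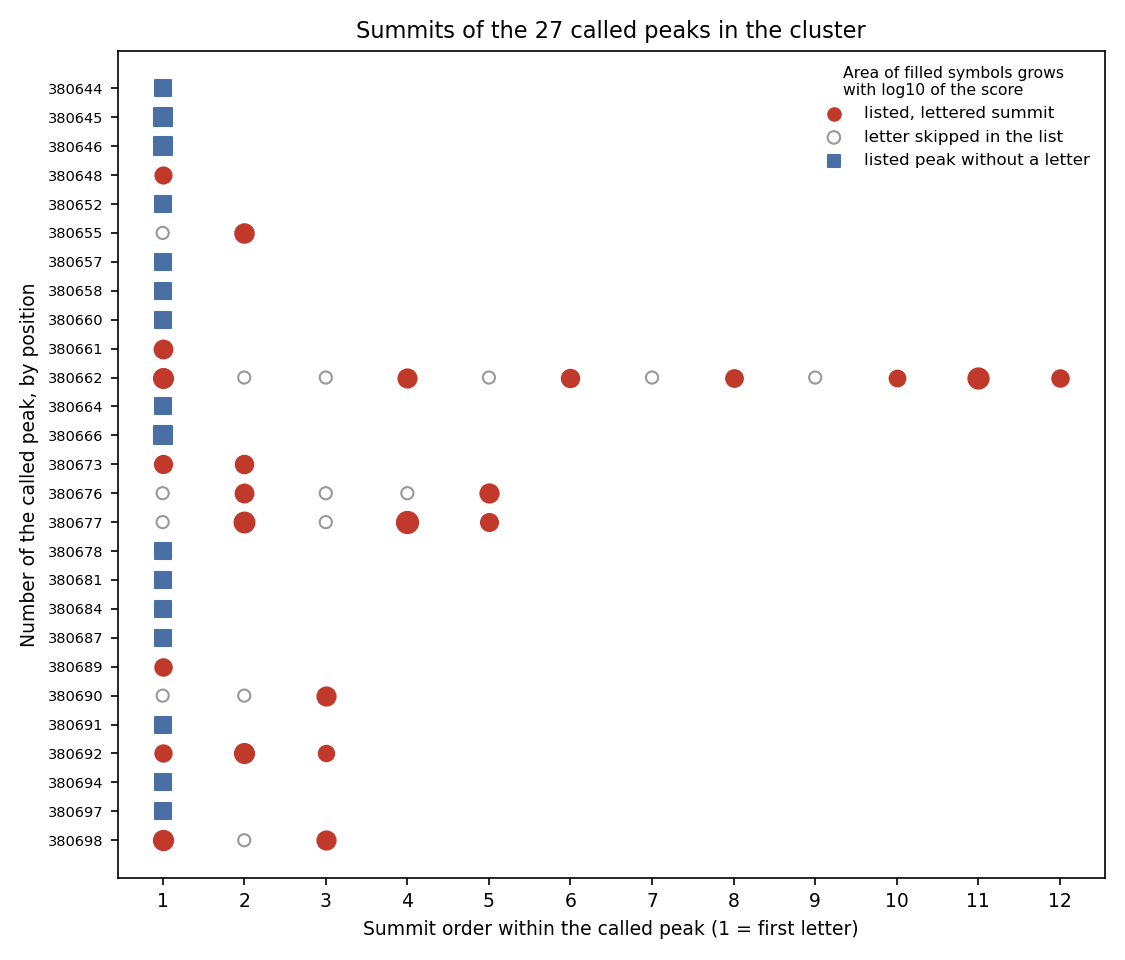
Summits of the 27 called peaks of the cluster, 1 row for each peak in order along the chromosome, with the order of the summit within its peak on the horizontal axis; filled circles are lettered summits in the list, open circles are letters skipped in the list, squares are peaks without a letter, and the area of filled symbols grows with log10 of the score. Peak 380662 reaches summit 12 with 7 circles filled, and 16 peaks have no letter.

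The regions were rich in G and C. Their GC content had a median of 56.5% and ran from 45.7% to 68.9%, against a median of 51.1% in the list, and they held a median of 24 CpG sites, against 9. The region with most CpG sites, 49, was 380662k at the opposed starts of LINC01962 and TRIM7-AS2, while the 380687 region inside RACK1 held 6. In 32 of 40 regions (80.0%) every 75-base word occurs once in the genome, against 93.2% of regions in the list. The words of 5 regions were less than 90% unique: 380645 and 380646 past OR2V2 (75.6% and 87.8%), 380658 and 380660 in LINC01962 (62.8% and 72.4%) and 380692c in RACK1 (82.0%). The scores of these 5 ran from 16.0 to 74.9, and the part that repeated sequence has in them was not tested.

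Of 15 consensus motifs looked for on both strands of the 501 bp, most were found in few members. The ETS motif (CCGGAAGT) was in 1 member (2.5%), the TRIM41 promoter region 380677d, against 2.76% of all regions. The YY1 motif (AAGATGGCG) was likewise in 1 (2.5%), the RACK1 region 380690c, against 1.25%. Both matches stand in capitals in the sequences above. The SP/KLF motif (GGGGCGGGG) was in 5 members, 380662k, 380677d, 380677e, 380690c and 380692b, against 10.1%, and all 5 lay within 1 kb of a TSS. The core of the interferon-response element ISRE (GAAANNGAA) was in 11 members (27.5%), against 15.2%. The EBF1 motif (CCCNNGGGA), of a factor that sets B cell identity, was in 9 (22.5%), against 12.7%. In a narrower window about the centre the SP/KLF, ISRE and EBF1 counts fell in members and list alike. There the ISRE core was in 3 of the 40 members (against 5.42% of the list), the EBF1 motif in 3 (against 6.04%) and the SP/KLF motif in 2 (against 5.69%). The ETS and YY1 motifs stayed in 1 member each in that window, against 1.67% and 0.602% of the list.

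The PU.1 motif (GAGGAAGT), which shares the letters GGAAGT with the ETS motif, was in 3 members (7.5%), against 5.14% of the list. The E-box (CACGTG) and NFY (CCAATNNG) motifs were also in 3 members each (7.5%), against 9.59% and 15.3%. The AP-1 motif (TGANTCA) was in 1 member (2.5%), 380664 in TRIM7, against 16.9%. In the narrower window the PU.1, E-box and AP-1 motifs stayed in 3, 3 and 1 members, against 2.28%, 4.82% and 7.51% of the list. The NFY motif fell to 0 members there, against 7.85%. None of these counts was tested. Motifs found in 0 members were NRF1 (GCGCATGCG, 1.21% of the list), CRE (TGACGTCA, 1.27%), RUNX (TGTGGTTT, 4.99%), the octamer (ATGCAAAT, 3.3%), NF-kB (GGGANTTCC, 3.32%) and CTCF (2.3%). In 15 members no motif was found and the most in any was 3. With 40 members, a share differing from that of the list by a few regions says little, and a match is a run of letters and not a bound site.

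Among their gene families, TRIM41 stood high and RACK1 in the middle. Over the 75 protein-coding TRIM genes, 42 had a region within 1 kb of a TSS (56%), against 57.2% of all 20090 protein-coding genes, and the strongest regions of those 42 had a median score of 152.6, against 129.6 over all genes with one. TRIM41 ranked behind TRIM59 (2153), TRIM24 (2026) and TRIM68 (990) and level with TRIM35 (708). TRIM52 came 20th in order with 174.1 and TRIM7 24th with 115.9. TRIM genes without such a region were 33, among them TRIM10, TRIM15, TRIM17 and TRIM29. Of all protein-coding genes with a promoter region, 88.9% had a lower score than TRIM41, 58.4% than TRIM52, 47.0% than TRIM7 and 38.2% than RACK1.

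Genes of the 40S subunit, the ribosomal body on which RACK1 sits, nearly all had a promoter region. With RACK1 included these were 31 of 34 genes (91.2%, against the 57.2% of all protein-coding genes). The strongest were RPS12 (1293), RPS3A (1163), RPSA (1125) and RPS29 (1079), and the median over the 31 was 91.3. RACK1 with 83.9 was 18th in order. Its promoter call was thus close to the middle of its own complex.

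**Figure D3:**
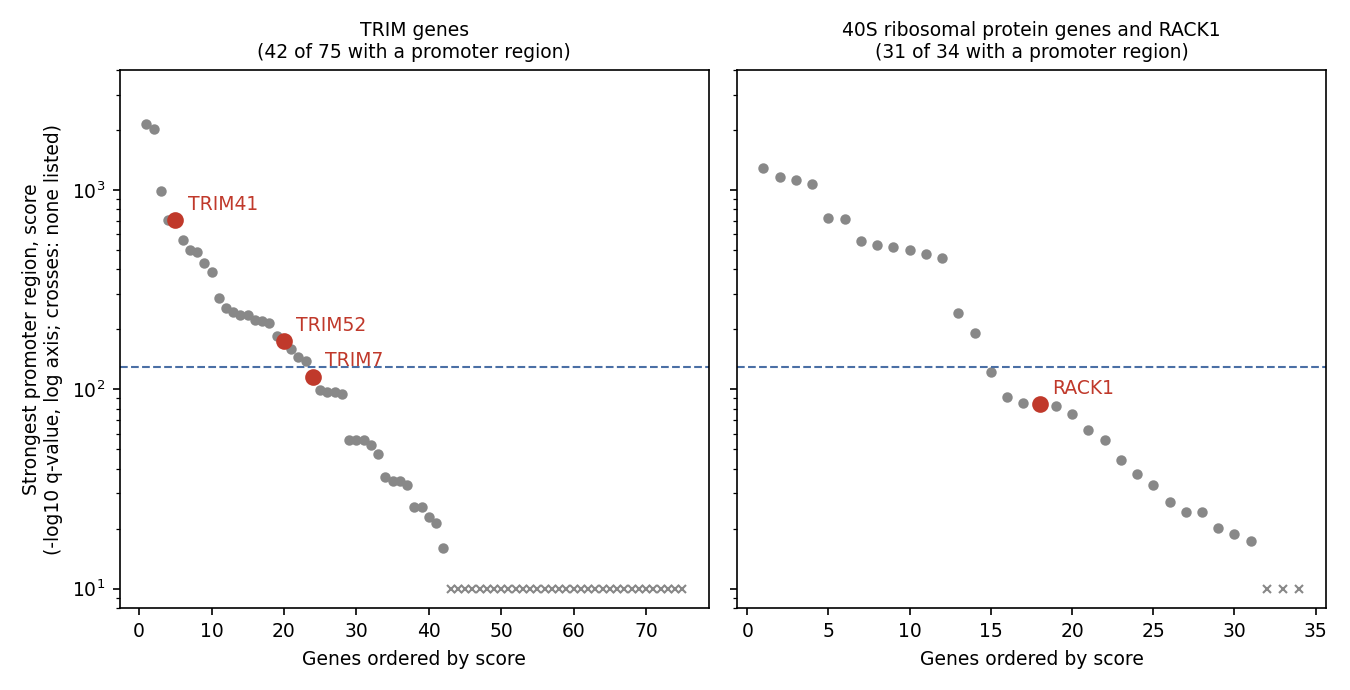
Score of the strongest region within 1 kb of a TSS (-log10 q-value, log axis) for each TRIM gene (left) and each 40S gene with RACK1 (right), ordered by score, with crosses for genes that had none and a dashed line at 129.6, the median over all protein-coding genes with such a region. TRIM41 (708) and TRIM52 (174.1) are above the line, and TRIM7 (115.9) and RACK1 (83.9) are below it.

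The next clusters in size differed from this one in how many genes they overlapped. They held 35 regions at GLT1D1 and SLC15A4 (chr12:129267581-129346439), 33 at ANKRD33B (chr5:10552756-10641827) and 32 at PTTG1 and SLU7 (chr5:159842948-159934551). Their median scores were 47.4, 37.8 and 27.2, around the 38.6 here, and they held 9, 2 and 2 regions at protein-coding starts, against 14 here. The RACK1 and TRIM cluster overlapped 16 annotated genes of all types, 5 of them protein-coding, where the other 9 of the 10 largest clusters overlapped from 1 to 4 genes. Its share of regions with a letter, 60.0%, was below the 85.7%, 72.7% and 65.6% of those clusters. Over all 287 clusters of at least 10 regions, the median score had a middle value of 39.4, 53 clusters had a stronger strongest region and 46 a higher median GC content. The cluster was thus near the middle in median score, with a strongest region above that of 232 clusters, and none of these differences was tested.

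**Figure D4:**
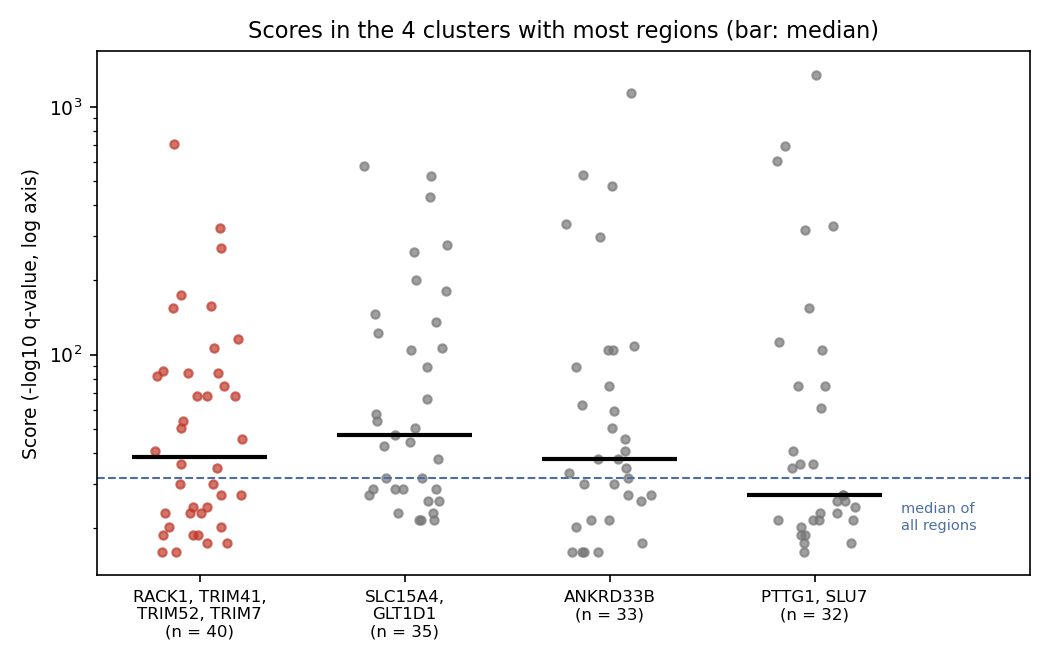
Scores of single regions (-log10 q-value, log axis) in the 4 clusters with most regions, with a bar at each median and a dashed line at 31.6, the median of all regions; points are spread sideways at random to separate them. The RACK1 and TRIM cluster has a median of 38.6 and 1 region above 500, while each of the others has at least 2.

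The cluster is also the last on its chromosome. No region of the list lay in the 226057 bp between its end and the end of chromosome 5. There, 15.2% of 75-base words occur once in the genome, against 96.3% within the regions, 97.6% between them and 94.2% in the 400 kb before the cluster. The share was 58.3% in the first 50 kb past the cluster and from 1.75% to 4.91% in the stretches after it. At most 12 called peaks fell there, since 12 numbers lie between the last region of chromosome 5 and the first of chromosome 6. The part that repeated sequence has in the absence of regions was not tested.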

How the data were processed

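Single-cell ATAC libraries of unstained GM12878 cells, sorted onto 2 plates, were pooled by the authors for peak calling. In the methods of the study, adapter-trimmed pairs were aligned to hg19 (Bowtie2 2.1.0 in the submitters' notes), mitochondrial reads, duplicates (Picard 1.79) and poor alignments were discarded, and MACS2 summits were ranked so that the 50000 of lowest q-value remained, each widened to a fixed length. The sources used here do not give a MACS2 version. The score is the deposited -log10 of the q-value. The list holds no reads, so depth is unknown and no interval of a score could be given, and removal of low-quality mappings can lower calls in repeated sequence.

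Coordinates are 1-based hg19. Sequence was GRCh37, whose chromosome lengths match, with GENCODE 44 genes mapped to it. Regions were placed by their centres with Python 3.11.15, pandas 2.3.3 and numba 0.67.0. The scripts were tested on simulated data. Members and lists were chosen with earlier results of these data known. All genes overlapping the cluster were named, with protein-coding neighbours within 500 kb, the 4 strongest members and up to 4 without a region in each gene family, all RACK1 partners and the 3 next clusters. Not every gene that this rule names is reported here. Single regions beside these were named after their values were seen. A 75-base word was unique if it occurred once on both strands of the assembly. With 1 pooled list no test was made. Alternatives changed the joining distance, promoter window, start sites, flanks, sequence window and the part of the list used.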

Additional observations from a re-analysis of the deposited data

How the results depend on the processing

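The cluster held 40 regions when neighbours were joined over 10 or 25 kb and at the distance used here, which lies between these, but the group at the RACK1 start held 9 when they were joined over 5 kb. Of its regions, 22 were at or above the median score of the list. Regions at promoters numbered 14 with all start sites of protein-coding genes, 25 with the start sites of all annotated genes and 6 with the outermost start site of each protein-coding gene alone. The other 19 settings for the cluster and the gene families moved a value by less than 1.5 times or less than the spread within the cluster. These include the joining distances above, among them the one used here. With the strongest summit of each called peak alone, the median score of the cluster was 30.1 in place of 38.6. Of the alternatives for single genes and motifs, 9 moved a count by more than 1.5 times, among them a flank of 10 kb, which gave OR2V2 4 regions in place of 0, and the narrower window for ISRE, EBF1 and SP/KLF motifs, which gave 3, 3 and 2 members. No paired analysis was possible because all libraries form 1 group and the list has no value per library. The list gives neither depth nor spread between cells, its scores are tied at 784 distinct values, and a region absent from it may still be open.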

Other observations

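Protein-coding genes outside the cluster and within 500 kb of it gave a mixed picture. MGAT1, an enzyme that starts complex N-glycan synthesis, had 4 regions within 1 kb of a start site with a strongest score of 515, and ZFP62, a zinc finger gene, had 2 with a strongest score of 253. Genes of the butyrophilin-like family had little: BTNL9 had 1 region with a score of 18.7, 105062 bp before the cluster, while BTNL8 and BTNL3 had 0. The olfactory receptor genes OR2Y1, OR2V1 and OR4F3 had 0 as well, as did OR2V2 within the cluster.

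Genes whose proteins bind or act with RACK1 had a promoter region in 8 of 11 cases (72.7%, with an exact 95% binomial interval from 39.0% to 94.0%, which takes in the 57.2% of all protein-coding genes). FYN, a tyrosine kinase, had the strongest promoter region of these with a score of 726. GIGYF2 and EIF4E2, which together repress translation, had 225 and 55.8, and EIF6, a factor that keeps ribosomal subunits apart, had 60.9. Of the protein kinase C genes, PRKCD had 117.9, PRKCB 47.4 and PRKCE 31.6. The phosphodiesterase gene PDE4D had 89.4. PRKCA, SRC and ZNF598 had no such region. RACK1 itself, with 83.9, fell within this range.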
